A study of Mus musculus with 3 samples.

Results

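The mouse aorta was examined for the genes of the collagen chains, the polypeptides that assemble in threes into collagen molecules. Members were all genes whose symbol has the form Col, a number, a and a number, and 44 of the 32285 genes in the annotation of the count matrices met this rule. Single-cell RNA sequencing had been performed on the whole aorta, from the arch to the iliac bifurcation, of male mice that carried human APOE2, APOE3 or APOE4 at the Apoe locus instead of the mouse gene. All mice had a C57BL/6J background, and all were fed a Western diet with 42% fat and 0.2% cholesterol for 16 weeks, starting at 12 weeks of age. Cells of 6 APOE2 mice, 5 APOE3 mice and 7 APOE4 mice were pooled by genotype, so that each genotype was 1 library and the spread between mice could not be measured. No mice without a human APOE allele and no mice on another diet were among the samples.

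Of 28506 deposited barcodes, 26757 had at least 200 genes and under 20% mitochondrial unique molecular identifiers (UMIs, which count captured transcript molecules) and were kept, 11772 from APOE2, 6737 from APOE3 and 8248 from APOE4 mice. The median cell held 12047, 17618 and 13521.5 UMIs in APOE2, APOE3 and APOE4, and the order APOE2, APOE3, APOE4 is kept wherever 3 values are given. Between 14 and 27 kept barcodes were shared by any pair of libraries. Levels are given as UMIs per 1000000 UMIs of the named cells (CPM). The intervals of CPM and of ratios are exact 95% intervals, which cover counting error only, and no p-value was computed between genotypes or cell classes.

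Collagens are secreted or membrane proteins whose chains wind into a triple helix. Fibril-forming collagens such as types I, III and V give the aortic wall its tensile strength, the network of type IV underlies basement membranes, type VI forms beaded microfibrils, and the fibril-associated collagens (FACITs) decorate the surface of fibrils. In the aorta, medial smooth muscle cells and adventitial fibroblasts are known as the main sources of collagen, and endothelial cells deposit basement membrane.

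The collagen chain genes took up 1799035 UMIs over all kept cells. A gene was described with its level when its mean CPM over the 3 libraries was at least 10 in smooth muscle-like, fibroblast-like or endothelial-like cells, and 26 of the 44 genes met this, leaving 18 below. By structural group, 7 of 11 fibril-forming genes, all 6 type IV genes, 4 of 6 type VI genes, 4 of 9 FACIT genes, both multiplexin genes, 1 of 4 network and anchoring genes, 1 of 4 transmembrane genes and 1 of 2 other genes were described. Fibril-forming genes held 52.1% of all collagen UMIs, type IV genes 19.7%, multiplexins 15.7%, type VI genes 8.25% and FACITs 3.64%. These shares count UMIs and were not scaled for transcript length.

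Several of the genes lie beside each other in the mouse genome (GRCm38, GENCODE vM21 coordinates). The 6 type IV genes form 3 head-to-head pairs whose annotated starts lie close together. Col4a1 on the minus strand and Col4a2 on the plus strand of chromosome 8 start at 11312826 and 11312805, 21 bases apart, so that the 2 genes overlap at their starts. Col4a4 (minus) and Col4a3 (plus) on chromosome 1 start at 82586849 and 82586921, 72 bases apart. Col4a6 (minus) and Col4a5 (plus) on chromosome X start at 141474076 and 141475385, 1309 bases apart. On chromosome 1, Col3a1 (45311538 to 45349706, plus strand) and Col5a2 (45374321 to 45503282, minus strand) are neighbours whose ends face each other. Of the 26 described genes, 8 (Col4a1, Col4a2, Col4a3, Col5a1, Col12a1, Col14a1, Col15a1 and Col18a1) overlap a gene on the opposite strand, and without knowing whether strand was used in counting their reads could not be told apart from those of that gene. The expression of these pairs in the libraries is described further on.

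RefSeq promoter windows of 300 bases (GRCm38.p6, 250 bases before to 50 bases after the annotated start) were at hand for 35 of the 44 genes, as 38 windows. Those of 5 type IV genes are shown because these genes are transcribed away from a shared region, and those of Col1a2 and Col3a1 because these fibrillar genes differed between cell classes. Capitals mark CCAAT or its reverse complement ATTGG, the GC box GGGCGG or CCGCCC, and TATAAA or TTTATA.
Col4a1, chr8:11312777-11313076, minus strand: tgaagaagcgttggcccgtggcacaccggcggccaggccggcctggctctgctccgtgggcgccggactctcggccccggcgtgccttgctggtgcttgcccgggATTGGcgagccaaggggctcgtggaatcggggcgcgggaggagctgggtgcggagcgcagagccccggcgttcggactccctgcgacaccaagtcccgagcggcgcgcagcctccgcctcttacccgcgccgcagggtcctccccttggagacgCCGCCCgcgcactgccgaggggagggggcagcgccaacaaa
Col4a2, chr8:11312555-11312854, plus strand: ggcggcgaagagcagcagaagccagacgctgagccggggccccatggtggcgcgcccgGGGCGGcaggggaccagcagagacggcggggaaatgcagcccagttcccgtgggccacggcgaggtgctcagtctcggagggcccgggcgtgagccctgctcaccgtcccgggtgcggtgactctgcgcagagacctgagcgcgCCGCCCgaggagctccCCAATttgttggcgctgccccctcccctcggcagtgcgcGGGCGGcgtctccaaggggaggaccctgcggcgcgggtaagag
Col4a4, chr1:82586800-82587099, minus strand: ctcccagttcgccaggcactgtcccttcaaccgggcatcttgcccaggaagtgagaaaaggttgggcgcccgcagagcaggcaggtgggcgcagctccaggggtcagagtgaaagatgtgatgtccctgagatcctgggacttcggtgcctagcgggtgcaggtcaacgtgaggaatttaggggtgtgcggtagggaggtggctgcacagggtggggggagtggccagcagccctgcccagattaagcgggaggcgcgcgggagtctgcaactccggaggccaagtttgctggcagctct
Col4a5, chrX:141475169-141475468, plus strand: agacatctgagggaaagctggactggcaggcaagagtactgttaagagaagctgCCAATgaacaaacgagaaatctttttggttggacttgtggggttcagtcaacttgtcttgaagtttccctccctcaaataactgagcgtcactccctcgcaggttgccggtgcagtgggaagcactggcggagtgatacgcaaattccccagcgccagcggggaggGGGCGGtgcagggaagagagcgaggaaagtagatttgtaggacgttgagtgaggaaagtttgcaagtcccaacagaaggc
Col4a6, chrX:141474027-141474326, minus strand: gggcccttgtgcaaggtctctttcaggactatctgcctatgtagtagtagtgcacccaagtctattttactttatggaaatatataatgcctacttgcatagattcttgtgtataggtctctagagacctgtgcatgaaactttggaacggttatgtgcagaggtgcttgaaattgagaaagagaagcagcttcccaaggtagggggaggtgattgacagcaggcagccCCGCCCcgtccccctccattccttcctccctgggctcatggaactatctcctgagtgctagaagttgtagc
Col1a2, chr6:4505368-4505667, plus strand: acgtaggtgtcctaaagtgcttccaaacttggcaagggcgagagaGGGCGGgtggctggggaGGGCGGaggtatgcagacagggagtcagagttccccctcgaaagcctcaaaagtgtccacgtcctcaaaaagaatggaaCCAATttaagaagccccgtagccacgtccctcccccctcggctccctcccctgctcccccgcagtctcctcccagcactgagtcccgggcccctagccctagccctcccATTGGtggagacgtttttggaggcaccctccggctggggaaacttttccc
Col3a1, chr1:45311288-45311587, plus strand: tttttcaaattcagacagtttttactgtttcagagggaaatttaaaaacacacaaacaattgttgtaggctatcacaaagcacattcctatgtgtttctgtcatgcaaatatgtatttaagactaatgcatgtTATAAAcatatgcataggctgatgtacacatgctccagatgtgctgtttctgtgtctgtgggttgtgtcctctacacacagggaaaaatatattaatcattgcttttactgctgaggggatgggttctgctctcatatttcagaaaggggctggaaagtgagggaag
The windows of Col4a1 and Col4a2 overlap, so that they share part of their sequence. Searched on both strands, GGGCGG was present in 23 of the 38 collagen windows (60.5%) and in 35.7% of the 32851 windows of all genes. CCAAT was present in 13 (34.2%) against 37.4% of all windows, and TATAAA in 5 (13.2%) against 13.6%. These matches describe the letters of the windows and no binding was measured.

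Cells were clustered without the collagen chain genes, and the 24 clusters were named only from fixed marker lists. Smooth muscle-like cells (6 clusters) numbered 6945, 4026 and 5226. Fibroblast-like cells (3 clusters, among them a cluster of low UMI count) numbered 1371, 815 and 1157, and endothelial-like cells (1 cluster) 177, 45 and 39. The 10 smooth muscle markers, among them Myh11 and Acta2, summed to 55450, 62586 and 58216 CPM in smooth muscle-like cells and to between 5867 and 9422 CPM in fibroblast-like cells. The 10 fibroblast markers, among them Pdgfra and Dcn, summed to 27229, 33402 and 31596 CPM in fibroblast-like cells and to between 888 and 1085 CPM in smooth muscle-like cells. In the endothelial-like cluster the endothelial markers summed to 4696, 1852 and 3636 CPM, but smooth muscle markers were at 6018, 13531 and 3158 CPM and fibroblast markers at 3857, 2104 and 1941 CPM, so that this cluster carried markers of other classes. Macrophage-like cells, which should make little collagen, carried smooth muscle markers at 7226, 14080 and 11889 CPM. Their collagen levels are given below for reference, and a level at or below them was not told apart from background. Whether those UMIs came from free RNA, doublets or the cells themselves was not tested.

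Collagen chain UMIs made up 0.781%, 0.924% and 0.778% of all UMIs in fibroblast-like cells, 0.356%, 0.431% and 0.388% in smooth muscle-like cells and 0.205%, 0.370% and 0.277% in endothelial-like cells. The share was 0.828% ± 0.0837 (SD, n = 3 libraries) in fibroblast-like, 0.392% ± 0.0377 in smooth muscle-like and 0.284% ± 0.0827 in endothelial-like cells. The fibroblast-like share was above the other 2 classes in each library. The smooth muscle-like share was above the endothelial-like share in each library, by less in APOE3 than in APOE2 and APOE4. Macrophage-like cells had 0.0772%, 0.100% and 0.114%. Cells with at least 1000 UMIs were also thinned to 1000 UMIs, and cells with fewer were left out. Col1a2 was then detected in 71.1%, 87.1% and 85.1% of fibroblast-like cells and in 38.7%, 51.2% and 49.2% of smooth muscle-like cells. Macrophage-like cells had it in 5.84%, 5.19% and 4.58%. Without thinning and with no cell left out, 96.3%, 99.5% and 98.9% of smooth muscle-like cells held a Col1a2 UMI.

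In the comparison of fibroblast-like with smooth muscle-like cells, genes were compared when their mean CPM was at least 10 and they had at least 50 UMIs, which left 23 of the 44 members, and a gene was called when it differed at least 2-fold in the same direction in each of the 3 libraries. The classes were built from these cells, so that the contrast describes them. Of the 23 members, 10 were higher and 2 lower in fibroblast-like cells, while 10.8% of all 8663 genes compared were higher and 6.35% lower. The median log2 ratio was 1.02 over these members and 0.11 over all genes. The higher genes were Col1a1, Col1a2 and Col3a1 (fibril-forming), Col4a3 and Col4a4 (type IV), Col6a6 (type VI), Col8a1 (network) and Col12a1, Col14a1 and Col16a1 (FACITs), and the lower genes were Col18a1 (multiplexin) and Col19a1 (FACIT). Col6a6, Col8a1, Col12a1 and Col16a1 had means under 10 CPM in smooth muscle-like cells, and Col19a1 had one in fibroblast-like cells. These genes passed the limit through the other class, which favours a call, and the same limit held for all genes.

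**Figure D1:**
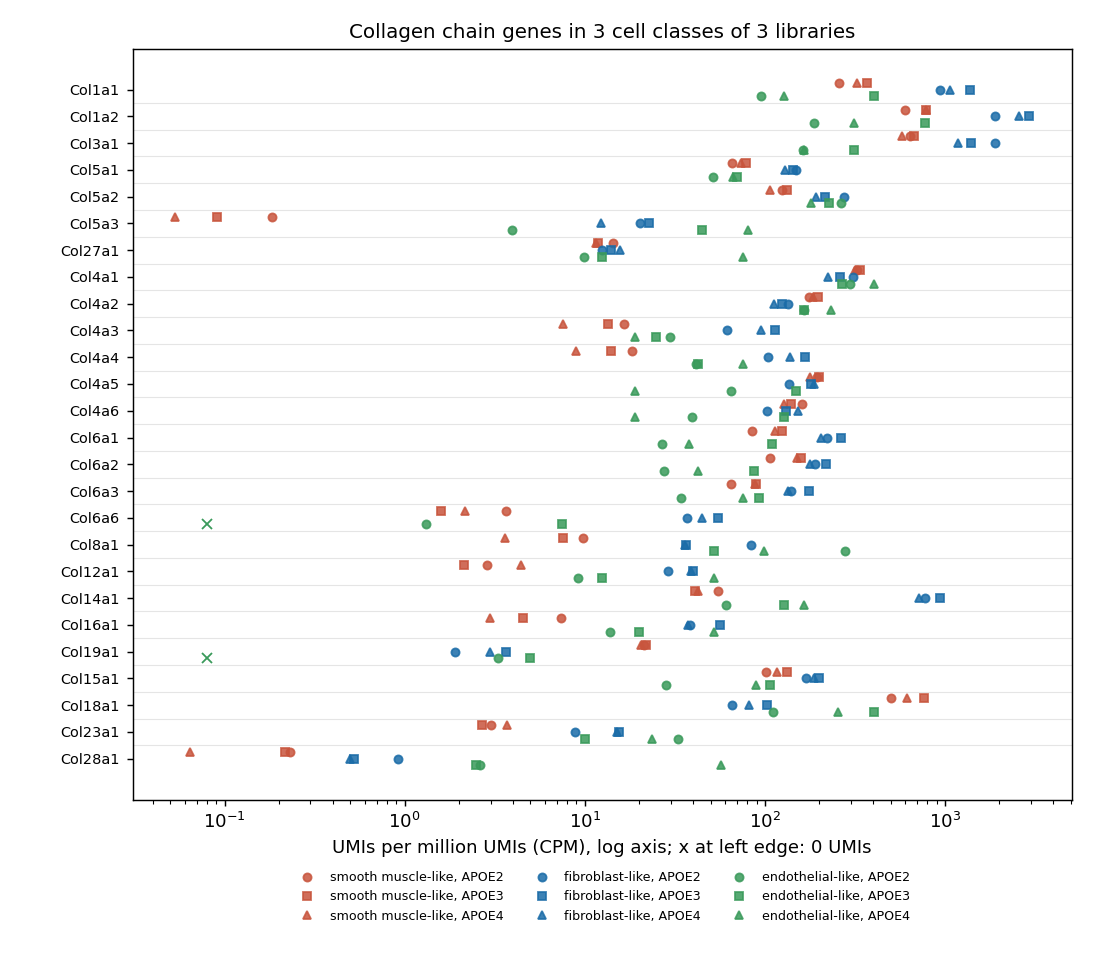
Level of each of the 26 described collagen chain genes (CPM, log axis) in smooth muscle-like, fibroblast-like and endothelial-like cells, 1 point per library. The 10 genes called higher have their 3 fibroblast-like points to the right of the smooth muscle-like points, and Col18a1 and Col19a1 have them to the left.

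Among fibril-forming collagens, Col1a2, which encodes the second chain of type I collagen, stood at 1888, 2939 and 2571 CPM in fibroblast-like cells and at 598, 790.1 and 787 CPM in smooth muscle-like cells. Every fibroblast-like value was above every smooth muscle-like value, with log2 ratios of 1.66, 1.90 and 1.71. Col1a1, the other type I chain, was at 938, 1385 and 1064 CPM against 259, 368 and 325 CPM. Its log2 ratios of 1.86, 1.91 and 1.71 were close to those of Col1a2. Col3a1, the chain of type III collagen, was at 1889, 1399.8 and 1176 CPM against 641, 672 and 581 CPM. Over summed UMIs the difference was largest in APOE2 (log2 ratio 1.56) and near the 2-fold limit in APOE3 and APOE4 (1.06 and 1.02). In the median fibroblast-like cell Col3a1 was instead lowest in APOE2, as given below. The call of Col3a1 was lost when libraries were scaled by the median gene (median log2 ratio 0.93).

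The chains of type V collagen, which regulates fibril diameter, pointed the same way without reaching 2-fold in each library. Col5a1 was at 149.9, 144 and 130.4 CPM in fibroblast-like and at 66.1, 78.5 and 73.8 CPM in smooth muscle-like cells, and Col5a2 at 277, 215 and 194 CPM against 124, 133 and 106 CPM. Col5a3 was nearly absent from smooth muscle-like cells, where it was under 0.2 CPM in each library, and was at 20.3, 22.9 and 12.3 CPM in fibroblast-like cells, and its mean over both classes was just under the limit for comparison in this contrast. Col27a1, a further fibril-forming chain, was at 12.5, 13.95 and 15.7 CPM against 14.4, 11.9 and 11.5 CPM, and its log2 ratios of -0.21, 0.23 and 0.44 took both signs.

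The 6 type IV genes split by chain pair. Col4a1 and Col4a2, whose products form the common basement membrane network, were at 309, 263 and 226 CPM and at 135, 125 and 112 CPM in fibroblast-like cells. In smooth muscle-like cells they were at 324, 336 and 319 CPM and at 175, 197 and 185 CPM, so that the log2 ratios of both were below 0 in every library without a 2-fold difference. Col4a3 was at 61.7, 114 and 95.5 CPM in fibroblast-like cells and at 16.5, 13.5 and 7.60 CPM in smooth muscle-like cells. Its head-to-head partner Col4a4 was at 104, 167 and 139 CPM against 18.2, 14.1 and 8.99 CPM. The log2 ratios were 1.90, 3.08 and 3.65 for Col4a3 and 2.52, 3.56 and 3.95 for Col4a4, lowest in APOE2 and highest in APOE4 for both. Macrophage-like cells had at most 3.30 CPM of Col4a3 and 5.78 CPM of Col4a4. The X-linked pair Col4a5 and Col4a6 was similar in the 2 classes. Col4a5 was at 136, 182 and 187 CPM in fibroblast-like and at 195, 199 and 178 CPM in smooth muscle-like cells, and Col4a6 at 103, 131 and 152 CPM against 160.5, 140.3 and 128 CPM. The log2 ratios of both were below 0 in APOE2 (-0.53 and -0.64) and above 0 in APOE4 (0.07 and 0.25).

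The main chains of type VI collagen, Col6a1, Col6a2 and Col6a3, had log2 ratios above 0 in every library, and none reached 2-fold in all 3. Col6a1 was at 221, 266 and 204 CPM against 85.5, 124 and 114 CPM, with log2 ratios of 1.37, 1.10 and 0.85. Col6a2 differed less, at 189, 219 and 178 CPM against 107, 159 and 150.2 CPM. Col6a6, a rarer chain related to Col6a3, was instead at 37.1, 55.2 and 45.1 CPM in fibroblast-like cells and under 4 CPM in smooth muscle-like cells, with log2 ratios of 3.35, 5.11 and 4.37. Col6a6 and the type I chains thus separated the classes more widely than the 3 main type VI chains.

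**Figure D2:**
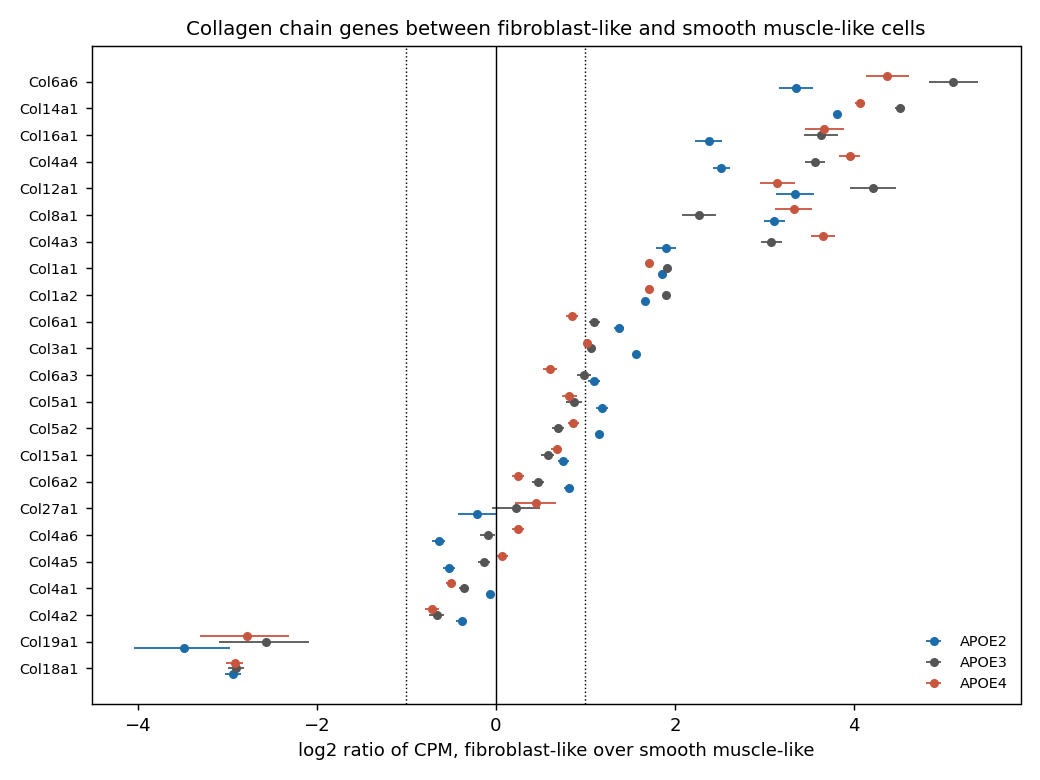
Log2 ratio of CPM, fibroblast-like over smooth muscle-like, for the 23 collagen chain genes compared, 1 point per library with its exact 95% interval. Ratios run from -3.48 for Col19a1 in APOE2 to 5.11 for Col6a6 in APOE3, and most points lie above 0.

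Of the FACITs, Col14a1, the chain of collagen XIV, which binds fibril surfaces, was at 774, 936 and 718 CPM in fibroblast-like cells and at 55.2, 41.1 and 42.8 CPM in smooth muscle-like cells. Its level over all smooth muscle-like cells was below that in macrophage-like cells (101, 59.9 and 63.0 CPM) and was not told apart from background. In the smooth muscle-like cluster C12 it was above the macrophage-like level, as given below. Col12a1 was at 29.2, 39.8 and 38.9 CPM with log2 ratios of 3.34, 4.21 and 3.14, and Col16a1 at 38.5, 56.7 and 37.6 CPM with log2 ratios of 2.38, 3.63 and 3.67. Col19a1 was the FACIT with the opposite direction, at 1.90, 3.67 and 2.98 CPM in fibroblast-like and 21.3, 21.8 and 20.5 CPM in smooth muscle-like cells. Col8a1, a short-chain network collagen of the vessel wall, was at 84.1, 36.4 and 36.2 CPM against 9.76, 7.55 and 3.61 CPM. The APOE2 fibroblast-like value of Col8a1 stood apart from the other 2.

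The 2 multiplexins, basement membrane zone collagens that release anti-angiogenic fragments, differed from each other. Col18a1, the source of endostatin, was at 501, 766 and 615 CPM in smooth muscle-like cells and at 65.4, 102 and 81.2 CPM in fibroblast-like cells, and its log2 ratios of -2.94, -2.90 and -2.92 were nearly equal in the 3 libraries. The fibroblast-like levels of Col18a1 did not clearly exceed those in macrophage-like cells (60.5, 169 and 125 CPM). Col15a1 was at 170.0, 199 and 188 CPM in fibroblast-like and at 101, 134 and 117 CPM in smooth muscle-like cells, short of 2-fold. The transmembrane collagen Col23a1 was at 8.78, 15.5 and 15.1 CPM in fibroblast-like cells and under 4 CPM in smooth muscle-like cells.

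In endothelial-like cells, 25 members could be compared with smooth muscle-like cells, and 6 were at least 2-fold higher and 2 at least 2-fold lower in each library, against 10.3% and 3.1% of 8939 genes. The median log2 ratio was -0.06 over the members and 0.23 over all genes. Col8a1 was higher, at 278, 52.5 and 99.4 CPM, from 423, 21 and 21 UMIs, with log2 ratios of 4.83 (95% interval 4.67 to 5.00), 2.80 (2.10 to 3.42) and 4.78 (4.07 to 5.42). Col23a1 was higher on 50, 4 and 5 UMIs, and Col4a4 (41.5, 42.5 and 75.8 CPM), Col5a3, Col12a1 and Col28a1 were higher on at most 63 UMIs in a library. The Col4a4 call was lost at a finer clustering (resolution 1.6), with collagen chain genes allowed in clustering and with scaling by the median gene. Its lowest median log2 ratio under these was 0.69. With 1 UMI of Col28a1 in APOE3, the log2 ratio there was 3.54 with an interval of -1.84 to 6.19. Col3a1 and Col19a1 were lower, Col3a1 at 163, 315 and 166 CPM. The Col3a1 call was lost with the mean of each cell's CPM (median log2 ratio -0.82). Of the higher genes, Col8a1, Col23a1, Col5a3, Col12a1 and Col28a1 had means under 10 CPM in smooth muscle-like cells. They passed the limit for comparison through the endothelial-like level, and Col19a1 passed it through the smooth muscle-like level. This favours a call, and the same limit held for all genes. The basement membrane chains Col4a1 (298, 270 and 402 CPM) and Col4a2 (165, 165 and 232 CPM) were at levels like those of smooth muscle-like cells, with log2 ratios between -0.32 and 0.34. When classes were set cell by cell, 1 gene was higher instead of 6. That count used only the libraries with at least 30 endothelial-like cells, which were then fewer than 3.

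Between libraries, the endothelial-like collagen values were compared for 19 members. Of these, 11 were at least 1.5-fold lower in APOE2 than in APOE3, where 15.5% of all genes were, and 2 were higher (15.9%). APOE4 had 3 higher and 8 lower than APOE3 (17.3% and 23.5%), and 7 higher and 4 lower than APOE2 (12.9% and 20.2%). Col1a2 was at 187, 780 and 312 CPM, and Col18a1 at 111, 405 and 256 CPM, both highest in APOE3, the library in which this cluster also had the highest smooth muscle marker sum. Both genes were higher in APOE4 than in APOE2, and the smooth muscle and fibroblast marker sums were lower in APOE4 than in APOE2. The part of these markers in the values was not tested, and with 45 and 39 cells in APOE3 and APOE4 the endothelial-like levels were not compared further.

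The 2 largest fibroblast-like clusters were told apart by their leading genes. Cluster C4 (600, 444 and 691 cells) was led by Fmod, Inmt and Hhip, and cluster C6 (610, 233 and 297 cells) by Opcml, Sdk1 and Dpp4. No member differed 2-fold in each library between them, among 24 compared, where 0.652% of all genes were higher and 1.62% lower in C4. The median log2 ratio of C4 over C6 was 0.43 over the members and 0.04 over all genes. Col1a2 was 0.90 log2 units higher in C4 in each of the 3 libraries, at 2615, 3726 and 3138 CPM against 1398, 1997 and 1686 CPM. Col15a1 was at 258, 251 and 223 CPM in C4 and at 109, 129 and 131 CPM in C6. Col3a1 had log2 ratios of -0.44, 0.35 and 0.65, lower in C4 only in APOE2. Collagen took up 0.887%, 1.09% and 0.905% of UMIs in C4 and 0.728%, 0.749% and 0.600% in C6.

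Among smooth muscle-like clusters, C12 (252, 118 and 203 cells, led by Dlx6, Dlx5 and Prss12) was the one set against the remaining smooth muscle-like cells. Of 22 members compared, 4 were higher (3.51% of all genes) and 1 lower (0.828%) in C12. Col15a1 was at 328, 416 and 369 CPM, with log2 ratios of 1.84, 1.73 and 1.82. Col14a1 was at 174, 185 and 190.1 CPM, above the macrophage-like level, with log2 ratios of 1.80, 2.32 and 2.43. Col6a6 (31.8, 22.4 and 16.5 CPM) and Col23a1 (16.7, 21.2 and 18.7 CPM) were also higher, and Col19a1 was lower, at 4.28, 6.65 and 4.45 CPM. Col6a6 and Col23a1, under 4 CPM in all smooth muscle-like cells, passed the limit for comparison through C12, and Col19a1 through the remaining cells. Fibroblast markers summed to 2480, 1988 and 1782 CPM in C12, against 888 to 1085 CPM in all smooth muscle-like cells, and their part in these differences was not tested. Col8a1 was at 40.5 and 37.0 CPM in the APOE2 and APOE3 cells of C12, from 180 and 89 UMIs, while the APOE4 cells held 1 UMI, a log2 ratio of -7.38 against APOE3 (95% interval -12.70 to -4.86).

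Cluster C5 (627, 329 and 429 cells), led by Spp1, Vcam1, Lcn2 and Timp1, kept smooth muscle markers but also raised chondrocyte markers and was left unnamed. Of 20 members compared with smooth muscle-like cells only Col8a1 was called higher, and none was lower, where 1.24% and 0.0621% of genes were. Col8a1 was at 97.4, 86.7 and 38.8 CPM, with log2 ratios of 3.32, 3.52 and 3.43. Its mean was under 10 CPM in smooth muscle-like cells, and it passed the limit for comparison through C5. This favours a call, and the same limit held for all genes. In APOE2, C5 also had Col3a1 at 1381 CPM against 563 and 522 CPM in the other libraries, and Col5a2 at 328 CPM against 184 and 173 CPM. Fibroblast markers summed to 5648 CPM in the APOE2 cells of C5 and to 1327 and 1139 CPM in APOE3 and APOE4, and their part in the Col3a1 difference was not tested. At a finer clustering most of C5 fell into a Spp1-led group (285, 79 and 77 cells) with Col8a1 at 146, 254 and 149 CPM and a group led by Nrgn and Igfbp2 (308, 242 and 338 cells) with Col8a1 at 39.1, 25.7 and 9.38 CPM. No member was called between cluster C3 (led by Tnnt2 and Hand2) and C2 (led by Sema3a, Rgs5 and Hoxa7), where 0.124% of genes were higher and 0.0371% lower in C3. None was called between the Lcn2- and Klk10-led C10 and smooth muscle-like cells, where 1.02% were higher and 0.0632% lower.

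**Figure D3:**
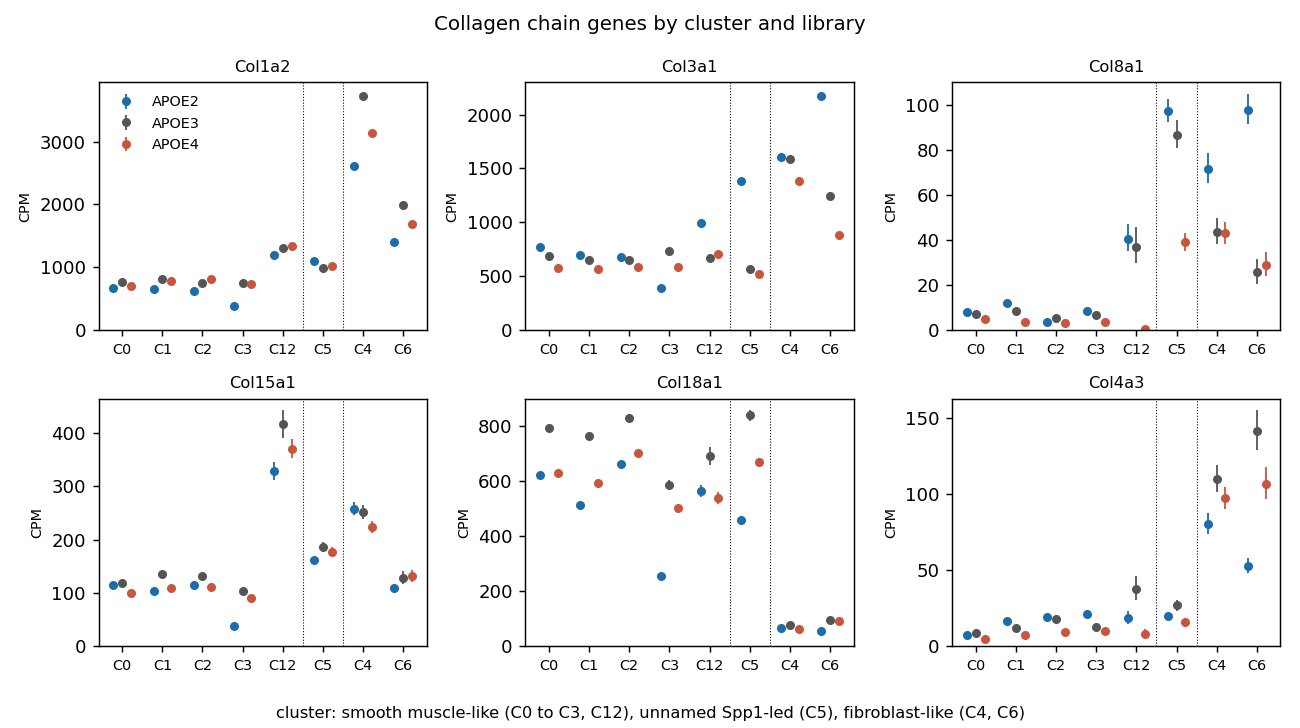
Levels of 6 collagen chain genes (CPM) in smooth muscle-like clusters C0, C1, C2, C3 and C12, the unnamed C5 and fibroblast-like C4 and C6, 1 point per library with its exact 95% interval. Col15a1 peaks in C12, Col18a1 is low in C4 and C6, and the APOE2 points of C3 are the lowest for Col1a2, Col3a1, Col15a1 and Col18a1 among smooth muscle-like clusters.

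The UMI ratio of 2 chains of the same collagen type was compared across classes. It counts captured transcripts without scaling for length, so that only its change between classes or libraries can be read. Col1a1 to Col1a2 was 0.433, 0.465 and 0.413 in smooth muscle-like and 0.497, 0.471 and 0.414 in fibroblast-like cells, with intervals that overlapped in APOE3 and APOE4 and not in APOE2. Col6a1 to Col6a2 was 0.796, 0.781 and 0.756 in smooth muscle-like and 1.17, 1.21 and 1.15 in fibroblast-like cells, without overlap in any library. Col4a1 to Col4a2 was 1.85, 1.71 and 1.72 against 2.30, 2.11 and 2.01, and Col4a3 to Col4a4 was 0.908, 0.960 and 0.846 against 0.593, 0.684 and 0.688. Col3a1 to Col1a1 was highest in APOE2 in both classes, at 2.48, 1.83 and 1.79 in smooth muscle-like cells and 2.01, 1.01 and 1.11 in fibroblast-like cells. These ratios use summed UMIs, and in the APOE2 cells of C6 the Col3a1 UMIs were concentrated in few cells, as given below. The ratio of Col4a3 to Col4a4 was lower in fibroblast-like cells in each library, while both genes were higher there.

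Between genotype libraries, a member was called when its CPM differed at least 1.5-fold, and the share of all genes past the same limits gives the background. With 1 library per genotype, no difference can be set against a spread between mice. The 3 contrasts share libraries. In smooth muscle-like cells, 19 members were compared. Of these, 0 were higher and 1 lower in APOE2 than in APOE3 (1.72% and 1.21% of all genes), 0 were higher and 2 lower in APOE4 than in APOE3 (2.76% and 0.728%), and 0 were higher and 2 lower in APOE4 than in APOE2 (3.23% and 2.77%). The median over all genes was 0.02, -0.10 and -0.10 on the log2 scale in these contrasts.

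In smooth muscle-like cells Col18a1 was the gene called lower in APOE2 than in APOE3 (log2 ratio -0.61, 95% interval -0.63 to -0.60). With each cluster given the same share in every library, an alternative chosen after seeing the data, its log2 ratio was -0.50 and no gene was called. Col6a1, Col6a2, Col6a3, Col1a1, Col1a2 and Col15a1 had log2 ratios between -0.56 and -0.40 in this contrast, short of 1.5-fold. Of the 19 members, 14 were below 0 in this contrast and 18 in APOE4 against APOE3. The share of all genes below 0 is not given here, so these counts cannot be read as particular to the members or to APOE2. The differences between APOE2 and APOE3 were larger in cluster C3, which held 2253, 506 and 592 cells. There 8 members were lower in APOE2 than in APOE3 (4.42% of genes) and 2, Col4a3 (0.75) and Col4a4 (0.73), were higher (3.53%). Col15a1 was at 38.0, 104 and 90.5 CPM in C3, Col18a1 at 256, 588 and 501 CPM, and Col1a2 at 386, 750.2 and 729 CPM, with APOE2 lowest for each. Col6a1 was at 49.5, 107 and 97.8 CPM, whereas Col4a1 was at 305, 349.7 and 336 CPM, with narrower differences. The APOE2 cells of C3 also had lower median UMIs (12121, against 18759 and 14488.5) and a lower smooth muscle marker sum (45498, against 60197 and 54254 CPM), and the part of these in the collagen values was not tested.

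The genes called lower in APOE4 smooth muscle-like cells were Col4a3 and Col4a4 in both contrasts. In APOE4 both were under 10 CPM and passed the limit for comparison through APOE2 and APOE3. This favours a call, and the same limit held for all genes. Against APOE3 the log2 ratios were -0.83 (95% interval -0.97 to -0.69) and -0.65 (-0.77 to -0.52), and against APOE2 -1.12 (-1.25 to -0.996) and -1.02 (-1.14 to -0.90). The call of Col4a4 against APOE3 was lost with classes set cell by cell (-0.51) and with scaling by the median gene (-0.58). By cluster, the log2 ratio of Col4a3 in APOE4 against APOE2 was -1.18 in C1, -1.05 in C2, -1.05 in C3 and -1.15 in C12. Against APOE3 it was -0.72, -0.98, -0.30 and -2.16 in these clusters, all below 0, with an interval that included 0 in C3 (-0.69 to 0.09). In C0 neither Col4a3 nor Col4a4 was called in APOE4 against APOE2 or APOE3. Fewer members passed the limits for comparison there (16, against 19 in C1), and not being called in C0 does not show that a gene was unchanged. The clusters were not alike in APOE2 against APOE3. Neither gene reached 1.5-fold in C1 or C2, and neither was called in C0. In C12 both were lower in APOE2, with log2 ratios of -1.02 (-1.46 to -0.57) for Col4a3 on 83 and 91 UMIs and -1.11 (-1.58 to -0.63) for Col4a4 on 72 and 84 UMIs.

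**Figure D4:**
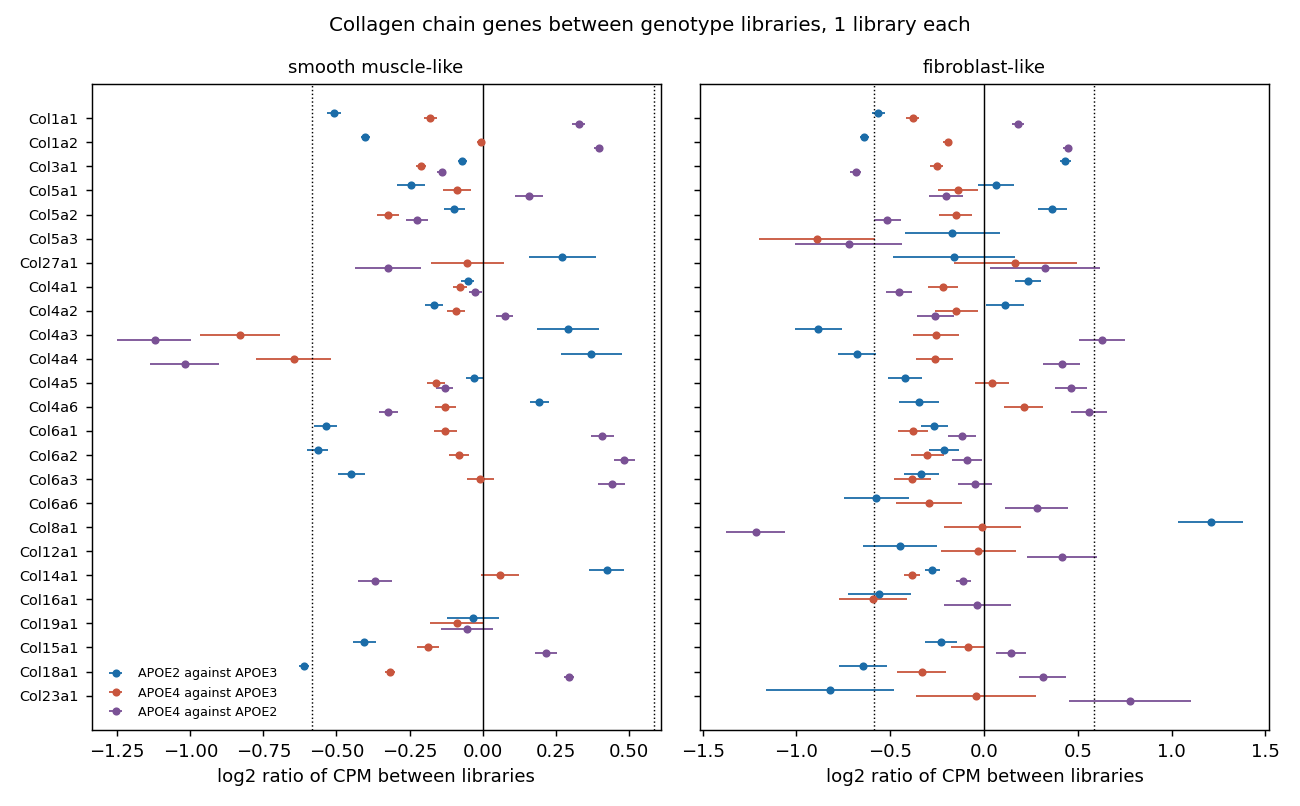
Log2 ratio of CPM between genotype libraries for the compared collagen chain genes in smooth muscle-like (left) and fibroblast-like (right) cells, with exact 95% intervals for counting error; dotted lines mark 1.5-fold. Col4a3 and Col4a4 in APOE4 lie farthest left among smooth muscle-like cells, and Col8a1 in APOE2 against APOE3 lies farthest right among fibroblast-like cells.

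In fibroblast-like cells, 24 members were compared. APOE2 had 1 member higher and 5 lower than APOE3 (2.48% and 3.61% of all genes). APOE4 had 0 higher and 2 lower than APOE3 (3.35% and 2.38%), and 2 higher and 3 lower than APOE2 (4.22% and 3.86%). The type IV genes Col4a3 and Col4a4 were called lower in APOE2 than in APOE3, with log2 ratios of -0.88 (95% interval -1.01 to -0.76) and -0.68 (-0.78 to -0.58), and Col4a3 was called higher in APOE4 than in APOE2 (0.63, 0.51 to 0.75). The last call was lost with the mean of each cell's CPM (0.51) and with equal cluster shares (0.56). Neither gene was called in C4, where the log2 ratios of APOE2 against APOE3 were -0.45 for Col4a3 and -0.17 for Col4a4. In smooth muscle-like cells as a whole APOE2 had the highest value of both genes, though not in C12. Col1a2 was lower in APOE2 than in APOE3 (-0.64, -0.66 to -0.62), as were Col23a1 (-0.82, -1.16 to -0.48) and Col18a1 (-0.64, -0.77 to -0.52). Col23a1 was under 10 CPM in APOE2 and passed the limit for comparison through the other libraries, which favours a call. The Col18a1 values were at the macrophage-like level, and its log2 ratio was -0.02 with classes set cell by cell. The Col18a1 call was also lost with the mean of each cell's CPM and with the low-UMI fibroblast-like cluster left out. With equal cluster shares, Col4a4 (-0.57), Col1a2 (-0.50) and Col23a1 (-0.57) fell short of 1.5-fold, as did Col4a4 (-0.48) and Col23a1 (-0.49) with the mean of each cell's CPM.

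Col8a1 was the member called higher in APOE2 fibroblast-like cells, with a log2 ratio of 1.21 (95% interval 1.04 to 1.38) against APOE3 and of -1.22 (-1.38 to -1.06) for APOE4 against APOE2. It was higher in both large clusters, at 71.7, 43.6 and 42.8 CPM in C4 and at 97.8, 25.6 and 29.0 CPM in C6. Over all kept cells of every class, 5 cells held 7.46% of the Col8a1 UMIs, and the highest cell held 182. Both calls of Col8a1 were kept with the mean of each cell's CPM, and its level in the median fibroblast-like cell is not given here. Col5a3 was lower in APOE4 than in APOE3 (-0.89, -1.20 to -0.58) and APOE2 (-0.72, -1.01 to -0.44), on 149 UMIs in APOE4. The call against APOE2 was lost with classes set cell by cell (-0.57) and with the mean of each cell's CPM (-0.30). Col16a1 was just past the limit in APOE4 against APOE3 (-0.59, -0.77 to -0.41), and fell short of it with classes set cell by cell (-0.51), with the mean of each cell's CPM (-0.46) and with scaling by the median gene (-0.52). Col23a1 was higher (0.78, 0.46 to 1.11) and Col3a1 lower (-0.68, -0.71 to -0.65) in APOE4 than in APOE2, and with the mean of each cell's CPM the log2 ratios were 0.37 and -0.32, short of 1.5-fold. With equal cluster shares Col23a1 was at 0.54, also short of it.

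The clusters differed in where these values came from. In C6, APOE2 had 5 members higher than APOE3 (4.41% of genes) and 4 lower (7.1%), whereas in C4 it had 1 higher (2.01%) and 2 lower (1.96%). The neighbouring genes Col3a1 and Col5a2 were both higher in APOE2 in C6, at 2178, 1240.3 and 883 CPM and at 312, 179.9 and 157 CPM, as were Col4a1 and Col4a2, with log2 ratios of 0.69 and 0.59 against APOE3. Col4a3 was lower there in APOE2, at 52.8, 141 and 107 CPM, with a log2 ratio against APOE3 of -1.42. In C4, Col3a1 was at 1609, 1586 and 1385 CPM and Col5a2 at 251, 252.5 and 224 CPM, so that APOE2 and APOE3 nearly coincided. Col1a1 (-0.62) and Col12a1 (-0.84) were the members lower in APOE2 than in APOE3 in C4.

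In C4, APOE4 had 0 members higher and 2 lower than APOE3 (3.68% and 3.47% of genes), and 0 higher and 1 lower than APOE2 (3.62% and 4.53%). The 2 genes were Col5a3 (log2 ratio -0.94) and Col8a2 (-0.87), the partner chain of Col8a1, and Col8a1 itself was the gene lower than in APOE2 (-0.74). In C6, APOE4 had 1 higher and 2 lower than APOE3 (6.53% and 5.73%), and 5 higher and 5 lower than APOE2 (8.29% and 6.56%). Col4a6, at 63.3, 73.9 and 119 CPM, was highest in APOE4 in C6 and was called against both other libraries (0.69 and 0.91). Its X-linked partner Col4a5, at 103, 145 and 171 CPM, was called against APOE2 alone (0.74), and Col4a3 and Col4a4 were called against APOE2 as well (1.01 and 0.97). All 4 chains of these pairs were at their lowest in the APOE2 cells of C6, while Col4a1 was highest there, at 334, 207 and 200.7 CPM.

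In C5, APOE2 had 5 members higher and 2 lower than APOE3 (5.32% and 3.64% of genes). The higher genes were Col3a1 (1.29), Col5a2 (0.84), Col6a3 (0.63), Col14a1 (0.90) and Col16a1 (1.29), and Col18a1 (-0.87) was lower, as was Col2a1, whose UMIs came from 10, 12 and 3 cells. The fibroblast markers, whose sum in C5 was highest in APOE2, moved with the higher genes, and their part was not tested. APOE4 had 0 higher and 4 lower than APOE3 (3.94% and 2.63%), among them Col8a1 (-1.16) and Col4a3 (-0.76), and 0 higher and 8 lower than APOE2 (3.96% and 6.1%). Col14a1 in C5 was at 70.9, 38.05 and 42.95 CPM, below the macrophage-like level in each library, and was not told apart from background.

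The higher summed Col3a1 level of APOE2 in C6 was concentrated in few cells. The 10% of cells with the most Col3a1 UMIs, 61 cells in APOE2, held 63.6% of them in APOE2, against 30.9% and 30.4% in APOE3 and APOE4, and the highest cell held 911, 110 and 57 UMIs. The median cell of C6 had 626, 1007 and 743 CPM, so that APOE2 was lowest by the median cell and highest by summed UMIs. In C5 the top 10% held 47.9%, 28.9% and 34.0% of Col3a1 UMIs, and the median cell had 696, 475 and 423 CPM, highest in APOE2 by both measures. In C4 the top 10% held 38.0%, 34.7% and 34.9%. Over all fibroblast-like cells the median cell had 838, 1038 and 914 CPM of Col3a1 and 1249.7, 2443 and 2194 CPM of Col1a2, with APOE2 lowest for both. Among fibroblast-like cells, 10.1%, 7.73% and 7.26% were among the cells with the highest doublet scores of their library, and the part of doublets was examined only by removing those cells.

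**Figure D5:**
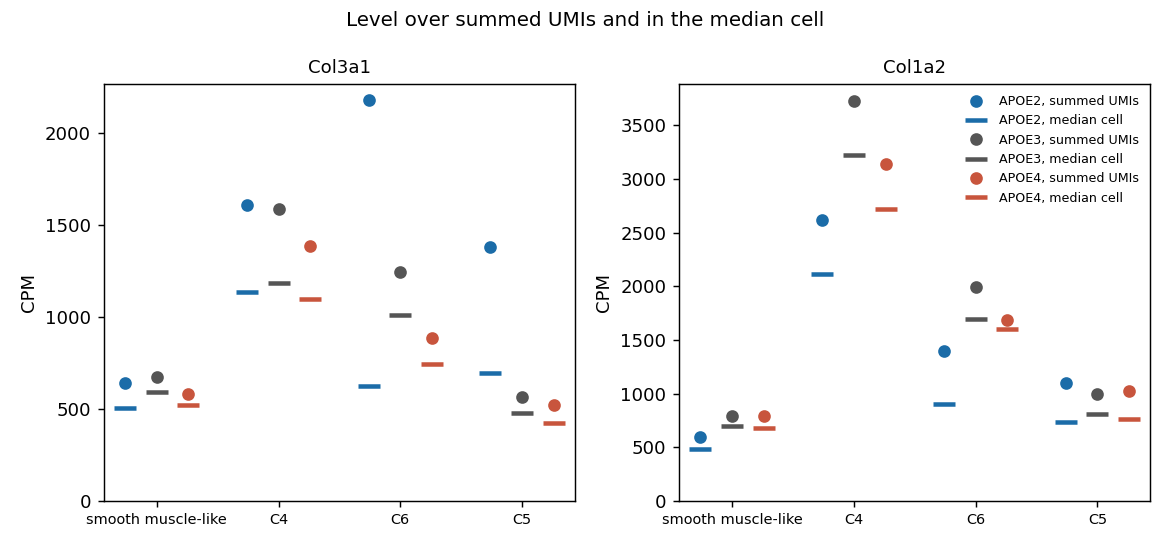
Level of Col3a1 (left) and Col1a2 (right) in CPM over summed UMIs (points) and in the median cell (bars) of smooth muscle-like cells and clusters C4, C6 and C5, by library. In C6 the APOE2 point of Col3a1 lies at 2178 CPM and its median cell at 626 CPM, whereas in APOE3 they lie at 1240.3 and 1007 CPM.

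Genes of collagen synthesis and reception were taken as 5 lists of 50 genes in all. Of 36 compared, 6 (16.7%) were higher and 2 (5.56%) lower in fibroblast-like than in smooth muscle-like cells, beside the 10.8% and 6.35% of all genes. Genes of prolyl and lysyl modification (13 of 15 compared) had 0 higher and 1 lower in fibroblast-like than in smooth muscle-like cells, and those of folding and export (10 of 10) had 0 higher and 0 lower. The gene called lower was the prolyl 3-hydroxylase P3h2, at 5.47, 11.2 and 7.12 CPM against 38.3, 54.9 and 46.2 CPM. All 4 of the 10 propeptide removal genes compared were higher in fibroblast-like cells. Of these, Pcolce, which enhances cleavage of the C-propeptide, was at 644, 885 and 709 CPM against 16.2, 19.96 and 14.7 CPM, and the protease gene Bmp1 at 72.9, 90.8 and 78.8 CPM against 17.6, 19.9 and 17.0 CPM. The related Pcolce2 was at 454, 619 and 591 CPM against 15.5, 37.9 and 59.97 CPM, and the N-propeptidase gene Adamts2 at 261, 378 and 298 CPM against 54.7, 57.7 and 48.5 CPM. Of 4 cross-linking genes compared, Loxl2 was higher, with log2 ratios of 1.73, 1.56 and 1.45. Of 5 receptor genes compared, the endocytic receptor gene Mrc2 was higher (1.82, 2.25 and 2.22) and Itgb1, the common beta chain of collagen-binding integrins, lower (-1.54, -1.43 and -1.43).

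Between libraries, 36 genes of these lists were compared in each class. In smooth muscle-like cells 3 (8.33%) were lower and 0 higher in APOE2 than in APOE3, where 1.21% and 1.72% of all genes were. APOE4 had 1 (2.78%) higher and 0 lower than APOE3 (2.76% and 0.728% of all genes), and 3 (8.33%) higher and 0 lower than APOE2 (3.23% and 2.77%). In fibroblast-like cells 1 gene (2.78%) was lower in APOE2 than in APOE3 and 1 (2.78%) in APOE4 than in APOE2, where 3.61% and 3.86% of all genes were. None was called in APOE4 against APOE3, where 3.35% of all genes were higher and 2.38% lower. In smooth muscle-like cells Pcolce2 was lower in APOE2 than in APOE3 (log2 ratio -1.29) and higher in APOE4 than in APOE3 (0.66), a gene whose smooth muscle-like level is small beside its fibroblast-like level. P3h3 (-0.71) and the collagen chaperone gene Fkbp10 (-0.59) were also lower in APOE2 than in APOE3. Serpinh1, which encodes the collagen chaperone HSP47, was at 371 CPM in APOE2 and 585 CPM in APOE4, a log2 ratio of 0.66, and P4ha1 had a log2 ratio of 0.67 in the same contrast. In fibroblast-like cells P3h3 was lower in APOE2 than in APOE3 (-0.73) and Loxl2 lower in APOE4 than in APOE2 (-0.76). No other gene of the 5 lists was called in these contrasts except Pcolce2, higher in APOE4 than in APOE2 smooth muscle-like cells (1.95).

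The 18 members below the limit for description held few UMIs. Among the FACITs they were Col9a1 (62 UMIs), Col9a2 (47), Col9a3 (205), Col20a1 (932) and Col22a1 (164), among fibril-forming genes Col2a1 (573), Col11a1 (170), Col11a2 (225) and Col24a1 (52). Of the network and anchoring genes Col7a1 had 147 UMIs, Col8a2 446 and Col10a1 39, and of the transmembrane genes Col13a1 had 165, Col17a1 8 and Col25a1 42. Of type VI genes Col6a4 had 7 UMIs and Col6a5 150, and Col26a1 had 8. Col8a2, the partner chain of Col8a1, was at 6.51, 13.5 and 7.04 CPM in fibroblast-like cells, close to the limit, whereas Col2a1 and Col9a2, chains of cartilage collagens, came from few cells.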

How the data were processed

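Aortic cells of 3 genotype pools were profiled on the 10x Genomics platform, and the deposited UMI counts per gene and cell had been made by the authors with Cell Ranger 7.0.1 on mm10. The end of the transcript captured, and whether intronic reads or strand were used, are not given in the sources used here. The counts were used as deposited. Cells with at least 200 genes and under 20% mitochondrial UMIs were kept, and libraries held 168310501, 125105151 and 124926887 UMIs (APOE2, APOE3, APOE4). Libraries were normalised with sctransform 0.4.2 and integrated with Seurat 5.3.0 in R 4.3.3. The 24 collagen chain genes among 3000 selected features were removed, which left 2976 features, and 30 components were used. Cells were clustered by Louvain at resolution 0.8. A cluster was named when at least 3 markers of a list were raised at least 2-fold and each seen in at least 10% of its cells. The smooth muscle-like name instead required 8 or more of its 10 markers at 50% or more of their CPM over all cells. It also required fewer than 3 raised and no leading markers of other classes, pericytes and proliferating cells aside. Clusters led by markers of another class stayed unnamed. Clusters of low UMI count stayed unnamed unless a marker of their class was among their 10 leading genes. A fibroblast-like cluster of low UMI count was kept on this ground. Python 3.11.15, NumPy 2.4.6, SciPy 1.17.1, pandas 2.3.3 and Scanpy 1.11.5 were used for the sums. The doublet caller Scrublet marked 1, 0 and 2 cells and was taken not to have worked, so that doublets were kept and cells with the highest scores removed in an alternative. CPM are summed UMIs of a class per 1000000, with exact Poisson intervals, and ratios have exact conditional binomial intervals. With 1 library per genotype no test was made. The interval code was tested on simulated data.

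Genes with a mean CPM of at least 10 and at least 50 UMIs were compared. The mean was taken over both cell groups, or over the 3 libraries in contrasts between libraries. A gene could thus pass through 1 group or library alone, which favours a call. Members with a mean CPM of at least 10 in a class were described, those at least 1.5-fold apart between 2 libraries were named, and synthesis genes were named where called. The members and lists were chosen with earlier results of these data known. Alternatives changed the filter, clustering, scaling, floor, fold and doublet treatment.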

Additional observations from a re-analysis of the deposited data

Results flagged for a closer look

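The 2 head-to-head genes Col4a3 and Col4a4 had log2 ratios of opposite sign between smooth muscle-like and fibroblast-like cells under the same contrast of libraries. Their intervals excluded 0 on each side. Members were picked for this section by this pattern and at least 1 call, so the intervals give it no further support. The 2 contrasts below share the APOE2 library. For APOE2 against APOE3, Col4a3 was at 0.29 in smooth muscle-like and -0.88 in fibroblast-like cells, and Col4a4 at 0.37 and -0.68. For APOE4 against APOE2, Col4a3 was at -1.12 and 0.63, and Col4a4 at -1.02 and 0.41. Over each class as a whole, APOE2 was the highest library in smooth muscle-like cells and the lowest in fibroblast-like cells for both genes. The clusters were not alike. Among smooth muscle-like clusters, both genes were at least 1.5-fold higher in APOE2 than in APOE3 in C3 (0.75 for Col4a3 and 0.73 for Col4a4), at least 1.5-fold lower in C12 (-1.02 and -1.11), and short of 1.5-fold in C1 and C2. Neither was called in C0, where fewer members passed the limits for comparison (16, against 19 in C1 and C2). Not being called there does not show that they were unchanged. Among fibroblast-like clusters, both were lower in C6 (-1.42 and -1.34) and short of 1.5-fold in C4 (-0.45 and -0.17). With 1 library per genotype the difference was not tested.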

How the results depend on the processing

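No paired analysis was possible because each genotype was 1 library and the labels number no replicates. Of 506 values of single members under an alternative, 480 kept their direction and side of the limit, 26 fell short of the limit and 0 changed sign. These values include no endothelial-like member with classes set cell by cell, where too few endothelial-like cells were left. Some of the agreement was fixed in advance. Lifting the floor on CPM could not change a member already called. Adding or leaving out the low-UMI clusters of 1 class could not change the library contrasts of the other class. Of 167 counts and shares, 141 stayed close to the reported value, a count within 1.5 times of it and a share within 1 SD of the libraries.

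With classes set cell by cell, 1 member was higher in endothelial-like than in smooth muscle-like cells (6 in the report), in fewer than 3 libraries. In smooth muscle-like cells 2 were then called for APOE2 against APOE3 and 1 for APOE4 against APOE3. With the mean of each cell's CPM, 3 were called for APOE2 against APOE3 in smooth muscle-like cells and 1 for APOE4 against APOE2 in fibroblast-like cells. With scaling by the median gene, 4 were lower in endothelial-like cells, and 1 was called for APOE4 against APOE3 in each of smooth muscle-like and fibroblast-like cells. Without the floor on CPM, 19 were higher in fibroblast-like cells, and for APOE2 against APOE3, APOE4 against APOE3 and APOE4 against APOE2 there were 6, 8 and 7 in smooth muscle-like and 11, 6 and 9 in fibroblast-like cells. At a fold of 4, 6 were higher in fibroblast-like cells. At a fold of 2, the library contrasts gave 0 (APOE2 against APOE3) and 0 (APOE4 against APOE3) in smooth muscle-like cells, and 1, 0 and 1 in fibroblast-like cells in the same order of contrasts. The share of all genes called was not computed under these alternatives or those below. Their counts therefore have no background and cannot be read as particular to the collagen chain genes.

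With subsets set cell by cell, 1 member differed between Hhip- and Dpp4-type fibroblasts and 3 between Dlx6-type and other smooth muscle cells. Among alternatives chosen after seeing the data, equal cluster shares gave 0 for APOE2 against APOE3 in smooth muscle-like cells and 3 each for APOE2 against APOE3 and APOE4 against APOE2 in fibroblast-like cells. The cause of these changes was not tested, beyond the fewer or more genes that a floor or fold admits. The endothelial-like contrast had no value at resolution 0.4, where that cluster merged into an unnamed one.

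The endothelial-like values rested on 45 and 39 cells in APOE3 and APOE4. Intervals cover counting error of pooled mice. RNA from outside the cell was not measured, and doublets were kept.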

Other observations

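Col2a1, the chain of cartilage collagen II, had 103, 451 and 19 UMIs in the APOE2, APOE3 and APOE4 libraries, from 51 cells in all. The 5 cells with the most Col2a1 held 53.1% of these UMIs, and 73.5% of them lay in cluster C5. Other cartilage collagen genes were also found there, Col11a1 with 49, 99 and 22 UMIs, of which the C5 cells held 3, 77 and 5, and Col9a2 with 1, 46 and 0 UMIs, of which 74.5% did. Chondrocyte markers summed to 382, 983 and 244 CPM in C5, highest in APOE3, against 41.1, 86.5 and 56.7 CPM in smooth muscle-like cells.

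Col6a5, a type VI chain, had 131, 13 and 6 UMIs in 41 cells, and 5 cells held 66.0% of them. Col26a1 had 8 UMIs, all in APOE2.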
